A study of Mus musculus with 6 samples.

Results

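The 37 genes described here encode proteins of the sarcomere, the contractile unit of striated muscle, and of the Z-disc, intercalated disc and costamere that anchor it, together with Ckm, Mb and Trim63, which serve its energy supply and turnover. They were taken as a fixed gene list and matched by symbol to the platform's probe annotation. All 37 were found, each with a single probe set, among 19505 named genes. They were measured on 6 Affymetrix arrays of primary mouse heart cells. Cardiac fibroblasts (CF) and cardiomyocytes (CM) were each cultured for 48 h with phosphate-buffered saline (PBS, called Sham in the sample titles) or with the secretome of either Ccrl2+ or Ccrl2- macrophages. All samples carry the labels C57BL/6N and 15 to 16 weeks of age. Both macrophage populations had been sorted from 6 pooled hearts of wild-type mice 1 week after TAC, transverse aortic constriction, a surgical pressure overload. The 2 secretomes therefore come from a single pool, and the PBS cultures received no macrophage product. The protocols speak of co-culture with macrophages where the source labels speak of secretome, and the source labels were followed. With 1 array in each of the 6 groups, no spread between samples could be measured and no test was made.

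In a sarcomere, thick filaments of myosin slide along thin filaments of actin, and calcium binding to the troponin complex on the thin filament starts the cycle. Thin filaments are anchored by alpha-actinin at the Z-disc, thick filaments are linked at the M-band, and titin spans the distance between Z-disc and M-band. Cardiomyocytes carry these transcripts at very high levels. Cardiac fibroblasts build actin stress fibres but no sarcomeres, so sarcomere transcripts in a fibroblast culture are followed here as a measured property of the whole culture. In such bulk samples fewer cells of a type and less RNA per cell cannot be told apart.

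All values below are on the log2 scale of the probe set summaries, where a difference of 1 means 2-fold. The floor used for counting was 6.55, the median of all named values. On the CF arrays the median negative control lay above it, at 6.69 with PBS, 6.59 with Ccrl2+ and 6.71 with Ccrl2-. Reaching the floor therefore does not show that a gene was detected in CF. A gene was counted as higher or lower when the brighter array reached the floor and the difference reached 2-fold. Where the dimmer array lay below the floor, the distance from the brighter value to the floor is given as a lower bound. Such a bound is measured to the floor and not to the level of the negative controls. Levels of different probe sets are not compared with each other. Across genes, which are not replicates, the lowest correlation between CM arrays was 0.995 and the lowest between CF arrays 0.973. The number of arrays limits the precision of every value below.

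The labelled cell types were checked against marker genes. All 9 fibroblast markers on the array were at least 2-fold higher in CF than in CM under PBS, with a median difference of 5.10. All 17 cardiomyocyte markers outside the sarcomere, Ryr2 and Pln among them, were lower in CF by 2-fold or more (median -6.68). The CM culture also carried endothelial transcripts, since 7 of 8 endothelial markers were at least 2-fold lower in CF. Over all genes 13.9% were higher and 16.9% lower in CF by as much. Of 12 skeletal muscle markers, which include the myogenic factor genes Myod1 and Myog, 11 lay below the floor on each of the 6 arrays, Actn3 being the exception.

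The sarcomere genes separated the cultures almost completely. Under PBS all 37 lay lower in CF than in CM, with a median difference of -6.42, against a median of 0.01 over all genes. Of the 36 that reached the floor, 0 were higher in CF and 36 lower by 2-fold or more, where 13.9% and 16.9% of all genes were. The count of 0 rests on no test. The remaining member, Tcap, the titin cap gene, lay below the floor on all 6 arrays at 5.0, 5.14 and 5.02 in CF and 6.45, 6.03 and 6.4 in CM. In the CM PBS array 32 members reached the 95th percentile of the negative control probe sets (10.2), and in the CF PBS array 4 did (10.74). Because the list was drawn up from cardiac muscle genes with these data known, this gap describes the cultures and is not a finding about the list.

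**Figure D1:**
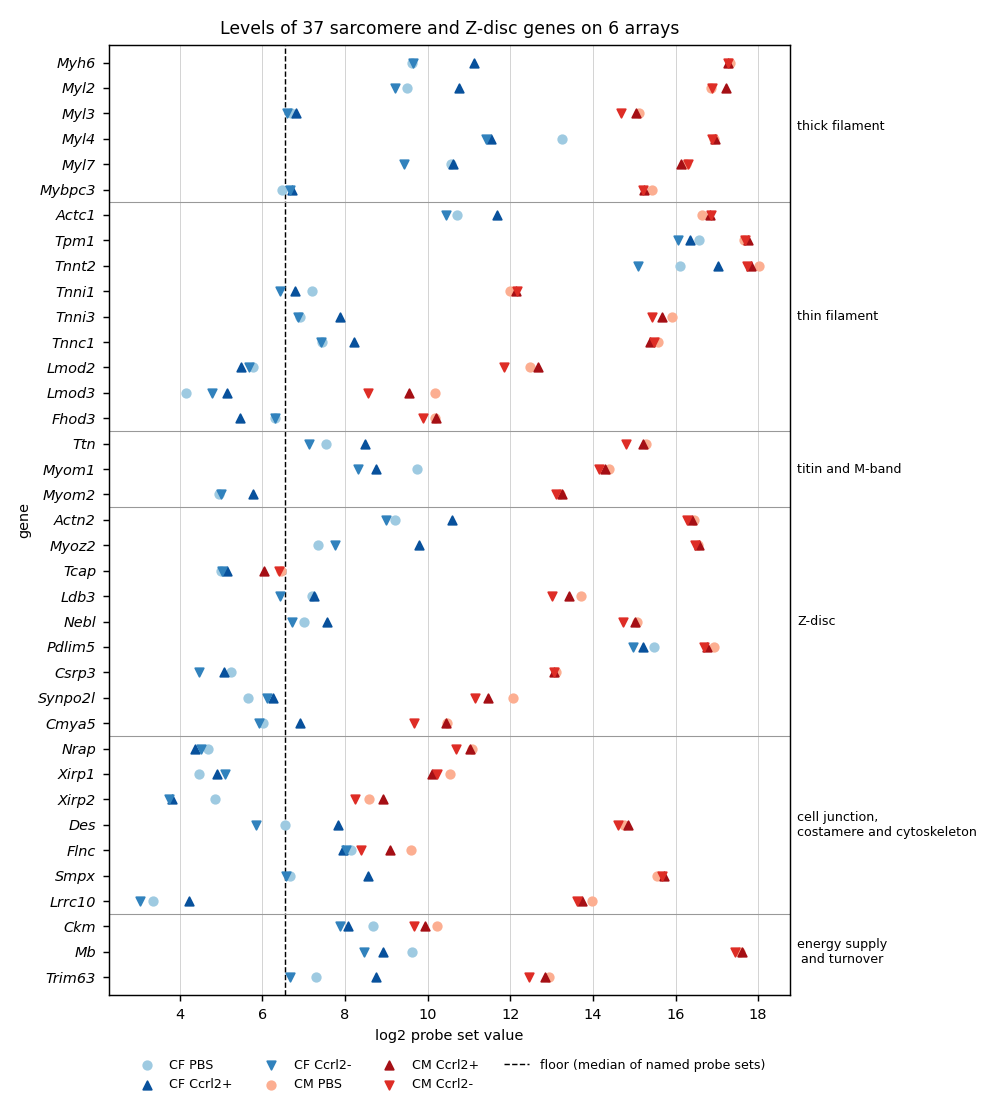
Log2 probe set values (horizontal axis) of the 37 genes (rows, grouped by role) on the 6 arrays, 1 point an array, blue for CF and red for CM; circles are PBS, upward triangles Ccrl2+ and downward triangles Ccrl2- secretome, and the dashed line is the floor of 6.55. The CM points of a gene lie to the right. In most genes they lie closer together than the CF points, as for Myoz2 (CF between 7.34 and 9.8). Flnc and Lmod3 are among the genes with the wider spread in CM.

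The size of the gap differed widely by gene. Lrrc10, a leucine-rich repeat gene of cardiac muscle, lay at 3.36 in CF and 13.97 in CM under PBS and was thus lower in CF by at least 7.42. Myoz2, which encodes the calcineurin-binding Z-disc protein calsarcin-1, lay at 7.34 against 16.54, a difference of -9.20. Tnni3, the adult cardiac inhibitory troponin gene, lay at 6.92 against 15.92. None of the 3 reached the negative controls' 95th percentile (10.74) in CF, so the size of these gaps is uncertain.

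Another set lay well above the negative controls in both cultures. Tpm1, the alpha-tropomyosin gene, which many non-muscle cells transcribe, lay at 16.57 in CF and 17.66 in CM, a difference of -1.09. Pdlim5, a PDZ and LIM domain gene of Z-discs and stress fibres, lay at 15.48 and 16.94. Tnnt2, cardiac troponin T, lay at 16.12 and 18.03. Actin, myosin and tropomyosin genes have close paralogs (Actc1 with Acta2, Myh6 with Myh7, Tpm1 with Tpm2), so their probes may bind related transcripts and their levels are uncertain. Ckm and Flnc also had smaller gaps than most members, at 8.67 and 8.15 in CF against 10.23 and 9.60 in CM.

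The 250 bases before the members' annotated transcription starts were searched for motifs of muscle transcription factors, on both strands. RefSeq's promoter table (GRCm38.p6) held 45 windows for 32 of the 37 members. A MEF2 site and a CArG box, the site of serum response factor (SRF), each of 10 bases and given by name, were searched beside the MCAT element bound by TEAD factors (CATTCC), the site of GATA factors (AGATAA), the core promoter's TATA box (TATAAA) and the muscle-type E-box (CAGCTG). A MEF2 site was found in 5 of 45 member windows (11.1%) and in 0.508% of all 32851 windows. CArG boxes stood in 7 member windows (15.6%) against 1.47% of all, MCAT in 20.0% against 12.6%, GATA in 17.8% against 9.99%, TATA in 8.89% against 12.4% and the E-box in 28.9% against 13.0%. No match of one motif overlapped a match of another in the member windows. Some windows belong to a single gene with several starts and overlap. A match describes these letters and is not evidence of binding.

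**Figure D2:**
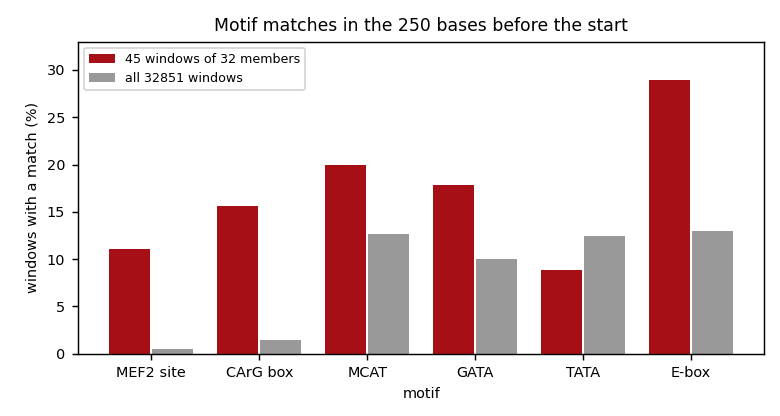
Share of promoter windows in percent (vertical axis) that hold each of 6 motifs (horizontal axis), red for the 45 windows of 32 members and grey for all 32851 windows in the table; no error bars are drawn because these are counts of fixed sequences. MEF2 sites (11.1% against 0.508%) and CArG boxes (15.6% against 1.47%) show the widest relative gap, and TATA lies lower in the members.

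The 11 members with a MEF2 site or a CArG box held only one kind each. The MEF2 group was Mybpc3, Myoz2, Synpo2l, Ttn and Xirp2, and the CArG group was Actc1, Ldb3, Myl3, Myl7, Myom1 and Nebl. Stretches around a match are shown for 3 genes of each group, picked by hand, 5′ to 3′ on the gene's strand. Only the MEF2 site or CArG box is in capitals. Matches of other motifs stay in lower case, such as the E-box in Myoz2 and Mybpc3, MCAT in Myl7 and GATA in Myom1. The Myoz2 stretch is chr3:123034988-123035050 (minus strand), with the site 33 to 24 bases before the start. Ttn is chr2:76982674-76982743 (minus) and Mybpc3 chr2:91118024-91118093 (plus). Actc1 is chr2:114052883-114052952 (minus), Myl7 chr11:5898804-5898873 (minus) and Myom1 chr17:71019428-71019497 (plus). All lie upstream of the annotated start.
Myoz2: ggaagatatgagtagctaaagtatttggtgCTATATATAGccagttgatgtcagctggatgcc
Ttn: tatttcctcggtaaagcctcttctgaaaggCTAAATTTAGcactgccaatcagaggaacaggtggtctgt
Mybpc3: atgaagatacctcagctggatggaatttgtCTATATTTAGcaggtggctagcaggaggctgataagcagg
Actc1: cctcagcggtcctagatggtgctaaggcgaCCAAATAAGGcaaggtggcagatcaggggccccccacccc
Myl7: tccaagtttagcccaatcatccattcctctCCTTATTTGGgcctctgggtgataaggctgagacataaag
Myom1: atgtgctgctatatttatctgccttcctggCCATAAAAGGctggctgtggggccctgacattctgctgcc

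In fibroblast cultures the Ccrl2+ secretome array carried more of several cardiac sarcomere transcripts than the PBS array and less of the atrial light chain transcript Myl4. Of 37 members 26 reached the floor, and 7 were higher by 2-fold or more and 1 lower, against 4.87% of all genes that reached it higher and 6.13% lower. Over all 37 the median difference was 0.42, with values from -1.72 to 2.46, against -0.01 over all genes. When values under the floor were first raised to it, that median was 0.00, as 11 members lay below on both arrays. A stricter floor, the 75th percentile of named values, left 3 higher members, and centring each array on its negative controls gave 11. The share over all genes was not counted under either setting. Among negative controls that reached the floor, 8.52% were higher and 11.2% lower by as much on these arrays.

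In the Ccrl2- secretome array the members past 2-fold all lay below PBS. Of 25 that reached the floor 0 were higher and 5 lower by that much, against 6.18% and 4.83% of all genes, and the median over all 37 was -0.26 against -0.04. No test was run for this count of 0, and at 1.5-fold it was also 0. Both differences are taken from the same PBS array and share its error. Set against each other, the secretome arrays need no PBS value. Of 26 members past the floor 12 were higher with Ccrl2+ by 2-fold or more and 0 lower, against 8.55% and 10.1% of all genes. The median over all 37 was 0.60 against 0.02, and it includes 11 members below the floor on both arrays. Among negative controls that reached the floor, 7.75% were higher and 11.3% lower by as much on these arrays. Within the CF arrays 23 of 37 members had their highest value with Ccrl2+ and 25 their lowest with Ccrl2-. Members below the floor are included, and this order was not counted over all genes.

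**Figure D3:**
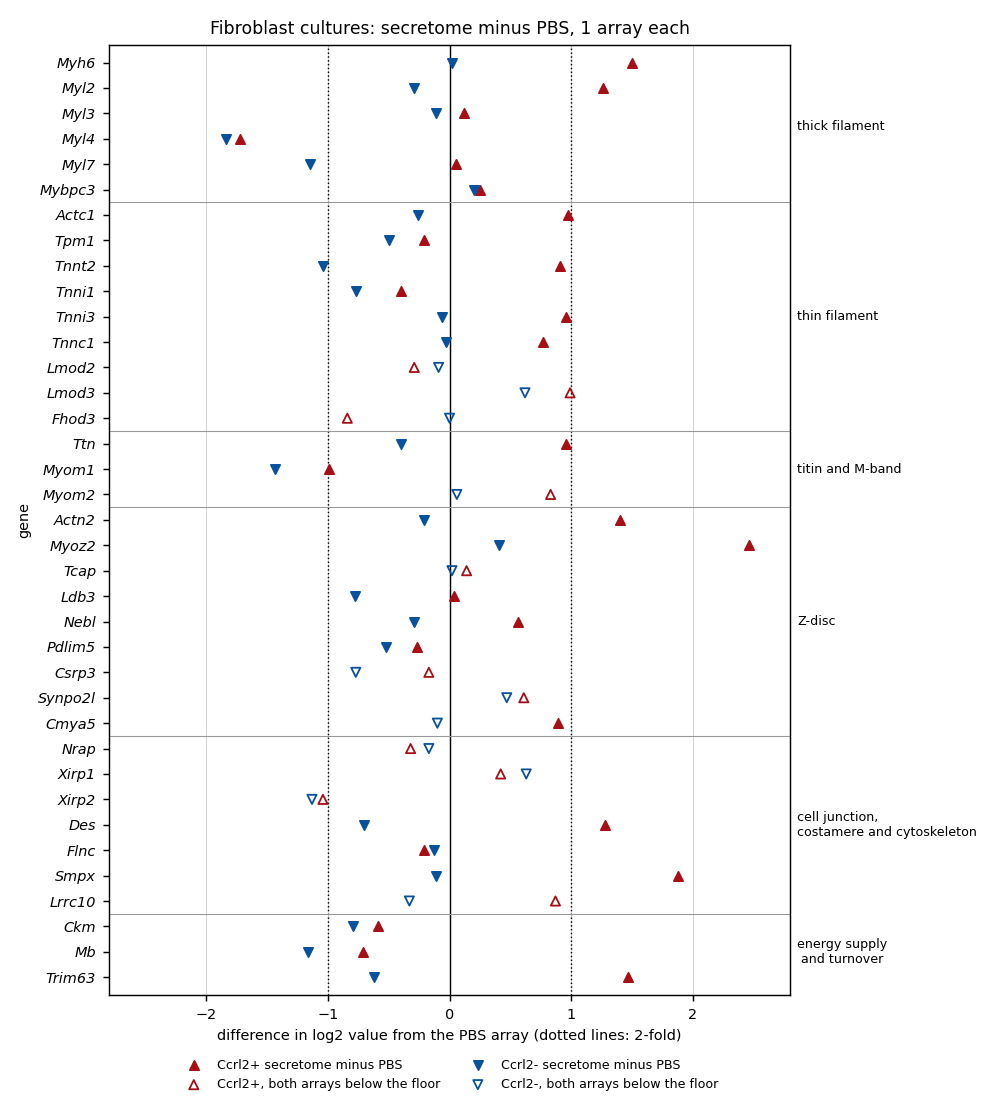
Difference in log2 value from the CF PBS array (horizontal axis, dotted lines at 2-fold) for each of the 37 genes (rows, grouped by role), red upward triangles for Ccrl2+ and blue downward triangles for Ccrl2- secretome; open symbols mark genes below the floor on both arrays of the pair. Myoz2 (2.46) and Smpx (1.88) lie farthest to the right with Ccrl2+, and Myl4 lies to the left with both secretomes (-1.72 and -1.84).

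Among thick filament genes the heavy chain and the ventricular regulatory light chain were higher with Ccrl2+. Myh6, the alpha-myosin heavy chain of the adult mouse heart, lay at 9.63 with PBS, 11.13 with Ccrl2+ and 9.65 with Ccrl2- in CF. The Ccrl2+ array stood 2.83-fold above PBS, and the other arrays nearly coincided. Myl2, the ventricular regulatory light chain, lay at 9.51, 10.77 and 9.22 in the same order, 1.26 above PBS with Ccrl2+. The CF values of Myl3, the ventricular essential light chain (6.70, 6.82 and 6.59), and of Mybpc3, myosin-binding protein C (6.47, 6.72 and 6.67), lay close to the floor.

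The atrial light chain genes were not higher than PBS by 2-fold with either secretome. Myl4, the atrial essential light chain, lay at 13.26 with PBS, 11.54 with Ccrl2+ and 11.42 with Ccrl2-, so that it was lower than PBS by 1.72 and 1.84. Here the PBS array stands apart from both secretome arrays. Myl7, the atrial regulatory light chain, lay at 10.57, 10.62 and 9.42 and was low only in the Ccrl2- array, by 1.15. In CM the same gene pair was level across the arrays, Myl4 at 16.94, 16.96 and 16.89 and Myl7 at 16.26, 16.14 and 16.29. Of 6 atrial markers outside the list 4 reached the floor in CF. Nppa, the atrial natriuretic peptide gene, lay at 16.10, 17.0 and 15.89, Dkk3 at 11.30, 13.60 and 10.84, and Sln, the SERCA regulator sarcolipin, at 7.16, 7.38 and 6.64, each highest with Ccrl2+. Stard10, at 10.09, 9.38 and 9.39, was highest with PBS, as Myl4 was. Of 5 ventricular markers 2 reached the floor, Hey2, a Notch target gene, at 9.49, 8.30 and 8.01 and Lbh at 15.42, 14.50 and 14.33, and these too were highest with PBS.

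Of 9 thin filament genes 6 reached the floor in CF with Ccrl2+ over PBS, 4 lying above PBS and 2 below, each by less than 2-fold. Actc1, cardiac alpha-actin, lay at 10.71 with PBS, 11.68 with Ccrl2+ and 10.45 with Ccrl2- in CF, 0.97 above PBS. Tnni3 lay at 6.92, 7.88 and 6.86, and Tnnc1, cardiac troponin C, at 7.44, 8.21 and 7.41. In these 3 genes the Ccrl2+ array was the high one and the others lay close together. Tnnt2 lay at 16.12, 17.03 and 15.08, with PBS between the secretome arrays, 0.91 below Ccrl2+ and 1.04 above Ccrl2-. Between the secretomes Tnnt2 differed by 1.95, Actc1 by 1.23 and Tnni3 by 1.02.

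The other thin filament members did not show that order. Tnni1, the slow skeletal and fetal troponin I, lay at 7.20 with PBS, 6.80 with Ccrl2+ and 6.43 with Ccrl2- in CF, so the fetal form was not the higher one with Ccrl2+ as the adult form Tnni3 was. Tpm1 lay at 16.57, 16.36 and 16.07. The leiomodin genes Lmod2 and Lmod3, whose products lengthen thin filaments, and the formin gene Fhod3 lay below the floor on all 3 CF arrays.

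Titin and the M-band genes did not share a pattern. Ttn lay at 7.53 with PBS, 8.49 with Ccrl2+ and 7.13 with Ccrl2- in CF, 0.96 above PBS and 1.36 above Ccrl2-. Myom1, the M-band linker myomesin-1, lay at 9.74, 8.75 and 8.31 and was lower than PBS by 0.99 and 1.43. In Myom1, as in Myl4, the PBS array was the high one. Myom2 lay below the floor on all CF arrays.

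The widest difference of a member from PBS in CF was that of a Z-disc gene. Myoz2 lay at 7.34 with PBS, 9.80 with Ccrl2+ and 7.75 with Ccrl2- in CF, 5.50-fold above PBS with Ccrl2+ and 0.41 above it on the log2 scale with Ccrl2-. Actn2, sarcomeric alpha-actinin, lay at 9.20, 10.60 and 8.99, 1.40 above PBS with Ccrl2+. Nebl, the thin filament anchor nebulette, lay at 7.01, 7.57 and 6.72. In all of these the Ccrl2+ array was the highest of the 3. No CF value of these 3 genes reached the control level used above, the 95th percentile, which leaves the size of the differences uncertain. Of the 7 members called higher with Ccrl2+, Myh6 and Myl2 reached it there (10.67), and Myoz2, Actn2, Smpx, Des and Trim63 did not.

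Ldb3, the Z-disc PDZ-LIM gene also called Cypher, lay at 7.21, 7.25 and 6.43, and Pdlim5 at 15.48, 15.21 and 14.96, so Ccrl2- was the low array for both. Cmya5, which encodes myospryn, reached 6.91 with Ccrl2+ and lay below the floor with PBS (6.02) and Ccrl2- (5.92). The bound on its difference from PBS is therefore 0.36. Csrp3, the muscle LIM protein gene, Synpo2l and Tcap stayed below the floor in CF.

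Of 7 cytoskeletal and junctional genes 3 reached the floor in CF with Ccrl2+ over PBS. Of these 2 were higher by 2-fold or more, against 4.87% of all genes. Smpx, a small striated muscle protein gene of costameres, lay at 6.68 with PBS, 8.56 with Ccrl2+ and 6.57 with Ccrl2- in CF, 1.88 above PBS. Des, the intermediate filament desmin, lay at 6.55, 7.83 and 5.85, 1.28 above PBS and at least 1.28 above Ccrl2-. Flnc, filamin C, was nearly level, at 8.15, 7.94 and 8.02. Nrap, Xirp1, Xirp2 and Lrrc10, genes of the intercalated disc and its neighbourhood, lay below the floor on all 3 CF arrays.

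Of the energy and turnover genes, Trim63 was higher with Ccrl2+ than with PBS, and all 3 were lower with Ccrl2- than with PBS. Trim63, the muscle ubiquitin ligase MuRF1, lay at 7.29 with PBS, 8.76 with Ccrl2+ and 6.67 with Ccrl2- in CF, 1.47 above PBS and 2.09 above Ccrl2-. Mb, the oxygen-binding protein myoglobin, lay at 9.63, 8.92 and 8.47, lower than PBS by 0.71 and 1.16. Ckm, muscle creatine kinase, lay at 8.67, 8.08 and 7.88. For Mb and Ckm the PBS array was the highest, whereas for Trim63 the Ccrl2+ array was.

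Cardiomyocyte genes outside the sarcomere also differed between the CF arrays. Of 17 such genes on the array 12 reached the floor with Ccrl2+ over PBS. Of these 3 were higher by 2-fold or more and 2 lower, against 4.87% and 6.13% of all genes. The median over all 17 was 0.90, which includes 5 genes below the floor on both arrays. A median with values raised to the floor was not computed for this list. Trdn, the junctional protein triadin, lay at 7.26 with PBS, 8.94 with Ccrl2+ and 7.13 with Ccrl2-, and Casq2, cardiac calsequestrin, at 7.82, 8.90 and 7.80. The sodium-calcium exchanger gene Slc8a1 was the reverse at 10.15, 8.37 and 10.08, and the calcium channel gene Cacna1c lay at 11.79, 10.39 and 10.48. The log2 of the list's summed linear level was 16.78 with PBS, 17.45 with Ccrl2+ and 16.54 with Ccrl2-, a sum carried mainly by Nppa and the calcium pump gene Atp2a2 (15.11, 15.37 and 14.89). The mean of the log2 values, in which each gene counts alike, was 7.93, 8.52 and 7.70. Ryr2, Nppb and Corin stayed below the floor on all 3 CF arrays. How far a different share of cardiomyocytes in these cultures bears on the members was not tested.

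Markers of other cell types on the same arrays were as follows. The log2 of the summed fibroblast marker level was 19.55, 19.54 and 19.40 with PBS, Ccrl2+ and Ccrl2-, and 1 of 9 markers was at least 2-fold higher than PBS with Ccrl2+ (Gsn) and 1 lower with Ccrl2- (also Gsn). Macrophage markers summed to 14.57, 15.21 and 14.61, with a median difference from PBS of 0.71 with Ccrl2+ and -1.10 with Ccrl2-, and with 1 of 9 higher and 1 lower with Ccrl2+ and 3 higher and 5 lower with Ccrl2-. Over all genes 4.87% were higher and 6.13% lower with Ccrl2+ over PBS, and 6.18% and 4.83% with Ccrl2- over PBS. Endothelial markers summed to 12.73, 12.73 and 12.45, and smooth muscle and pericyte markers to 18.47, 18.12 and 17.89. Their part in the sarcomere values was not tested.

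**Figure D4:**
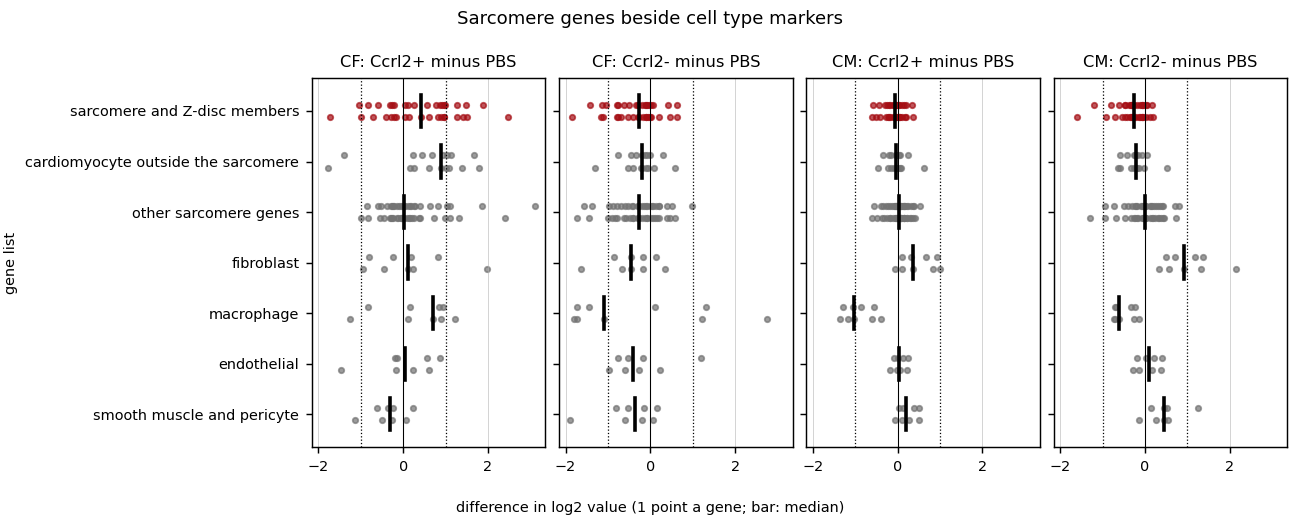
Differences in log2 value from the PBS array (horizontal axis, dotted lines at 2-fold) for genes of 7 lists (rows, 1 point a gene, black bar the median over all genes of the list) in the 4 comparisons with PBS, members in red and other lists in grey. In CF with Ccrl2+ the members (median 0.42) and the cardiomyocyte genes outside the sarcomere (0.90) lie to the right of 0, as do the macrophage markers (0.71), and in CM with Ccrl2- the fibroblast markers (0.91) do. The CF medians of the members and of the cardiomyocyte genes include genes below the floor on both arrays.

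Sarcomere genes outside the member list gave a mixed picture in CF. Of 52 on the array, 29 reached the floor with Ccrl2+ over PBS, 5 of them 2-fold higher or more and 1 lower. Over all genes these shares were 4.87% and 6.13%. The median over the 52 was 0.02. With Ccrl2- over PBS 28 reached the floor, 0 were higher and 5 lower, against 6.18% and 4.83% of all genes. The median over the 52 was -0.27. The count of 0 has no test behind it.

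The largest of these differences belonged to turnover and chaperone genes. Fbxo32, the muscle ubiquitin ligase atrogin-1, lay at 5.94 with PBS, 9.04 with Ccrl2+ and 6.92 with Ccrl2- in CF. With Ccrl2+ it was above PBS by at least 2.49, measured to the floor. Hspb7, a small heat shock protein gene of heart muscle, lay at 13.06, 15.46 and 11.68, so PBS stood between the secretomes. Pdlim3, the actinin-associated LIM protein gene, lay at 15.72, 16.82 and 14.16 in the same order. Tmod1, the thin filament cap tropomodulin-1, lay at 7.17, 8.28 and 6.87.

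The other named sarcomere genes differed by less than 2-fold from PBS in CF. Myh7, the slow beta-myosin heavy chain, lay at 7.59 with PBS, 7.96 with Ccrl2+ and 7.17 with Ccrl2-. Ankrd1, the stretch-responsive Z-disc and nuclear ankyrin repeat gene, lay at 15.70, 15.56 and 15.70. Tpm2, beta-tropomyosin, lay at 14.04, 13.74 and 13.25. Acta1, skeletal alpha-actin, stayed below the floor in CF and in CM.

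Muscle transcription factor genes were listed because of their known binding to sarcomere promoters. Of 16 on the array 14 reached the floor in CF with Ccrl2+ over PBS, of which 2 were higher by 2-fold or more and 0 lower, against 4.87% and 6.13% of all genes. With Ccrl2- over PBS 13 reached it, of which 0 were higher and 2 lower, against 6.18% and 4.83%, and these counts of 0 have no test. Myocd, the SRF partner myocardin, lay at 5.11 with PBS, 6.86 with Ccrl2+ and 4.63 with Ccrl2- in CF, so only the Ccrl2+ array reached the floor. It counts among the 2 higher genes, though its bound over PBS is only 0.31. Of the forkhead factor genes, whose products are known to act on Trim63 and Fbxo32, Foxo3 lay at 6.76, 8.41 and 6.38 and was highest with Ccrl2+. Foxo1 lay at 8.72, 8.10 and 7.66 and was highest with PBS, lower than it by 0.62 and 1.06. Mef2c lay at 12.93, 12.68 and 11.24 and was lower than PBS by 1.69 with Ccrl2-. Srf (9.39, 9.46 and 9.03) and Mef2a (14.57, 14.51 and 14.49) differed by less than 2-fold.

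In cardiomyocyte cultures the members were almost level. With Ccrl2+ over PBS 36 members reached the floor of which 0 were 2-fold higher and 0 lower, against 0.210% and 0.629% of all genes, and the median over all 37 was -0.06 with a range from -0.61 to 0.37. With Ccrl2- over PBS 0 were at least 2-fold higher and 2 lower, against 0.746% and 0.786% of all genes, and the median was -0.26 against 0.00 over all genes. Between the secretomes 1 member was at least 2-fold higher with Ccrl2+ and 0 lower, against 0.130% and 0.180% of all genes, with a median of 0.16. These counts of 0 rest on no test. In CM 23 of 37 members had their highest value with PBS and 27 their lowest with Ccrl2-. This order was not counted over all genes either. In some members it rests on small differences, as for Myh6 at 17.32, 17.27 and 17.26 with PBS, Ccrl2+ and Ccrl2-.

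With Ccrl2- 31 of 37 members lay below PBS in CM, a count that was not made over all genes. Most of them did so by less than 1.5-fold. By that much or more 6 members were lower, against 4.6% of all genes that reached the floor. Lmod3 lay at 10.17 with PBS, 9.56 with Ccrl2+ and 8.56 with Ccrl2-, lower than PBS by 1.61. It differed between the secretomes by exactly 1.00 and fell short of 2-fold there after quantile normalization (0.98) and after centring on the negative controls (0.98). Flnc lay at 9.60, 9.09 and 8.39, lower than PBS by 1.21. In both genes Ccrl2+ lay between the other arrays.

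Synpo2l, a synaptopodin-like Z-disc gene, lay at 12.06 with PBS, 11.47 with Ccrl2+ and 11.15 with Ccrl2- in CM. Cmya5 lay at 10.48, 10.44 and 9.68, Ldb3 at 13.71, 13.43 and 13.0, and Lmod2 at 12.47, 12.66 and 11.85. These 4 complete the 6 members at least 1.5-fold lower with Ccrl2- over PBS, and Ccrl2- was the low array in each. Negative controls differed by 2-fold or more on these arrays in 17.7% of cases, against 1.53% of genes, so a single difference of this size is weakly grounded.

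**Figure D5:**
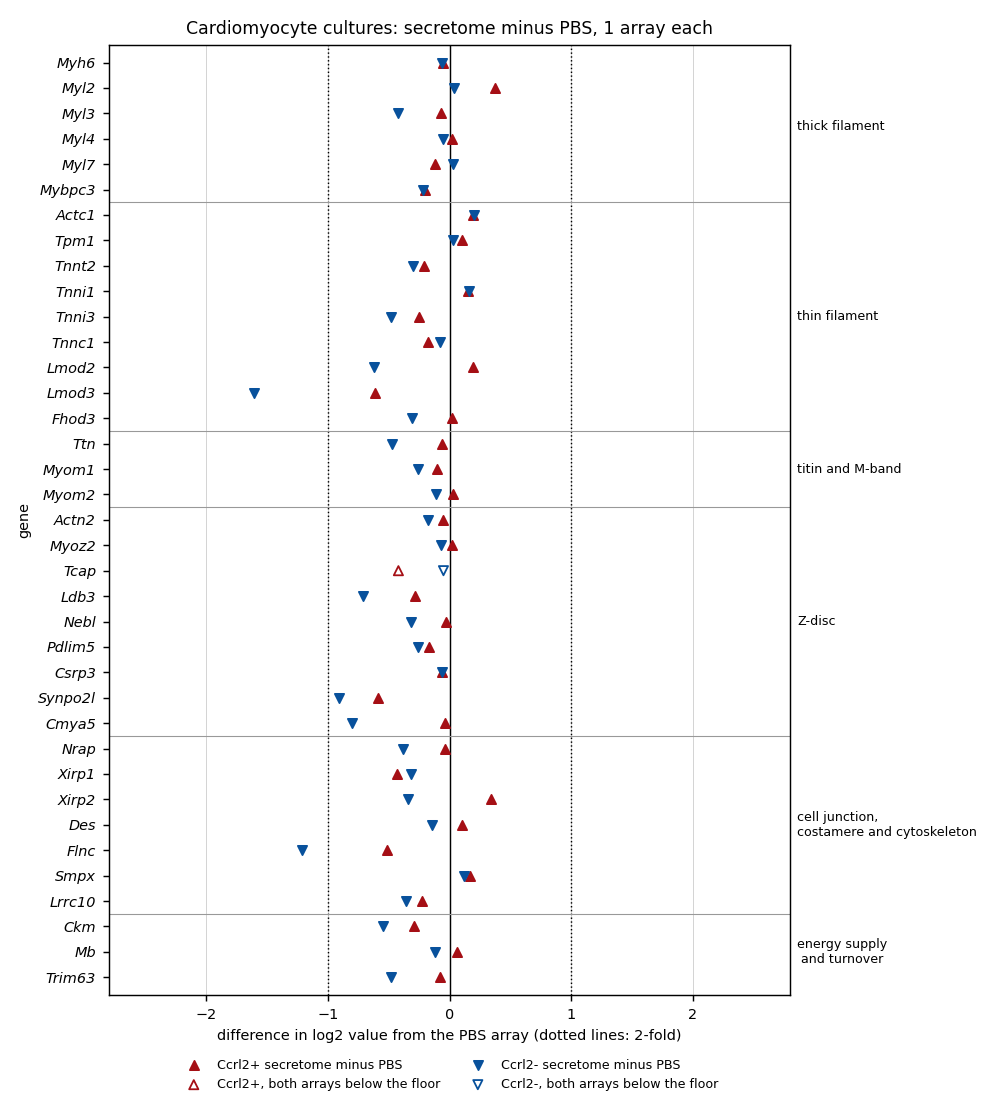
Difference in log2 value from the CM PBS array (horizontal axis on the scale used for CF, dotted lines at 2-fold) for each of the 37 genes (rows, grouped by role), red upward triangles for Ccrl2+ and blue downward triangles for Ccrl2- secretome; open symbols mark Tcap, below the floor on both arrays. Most points lie near 0, and Lmod3 (-1.61) and Flnc (-1.21) lie beyond 2-fold with Ccrl2-.

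The main contractile transcripts were close to constant in CM. Myh6 lay at 17.32 with PBS, 17.27 with Ccrl2+ and 17.26 with Ccrl2-, Myl2 at 16.85, 17.22 and 16.89, and Actc1 at 16.65, 16.84 and 16.85. Tnnt2 lay at 18.03, 17.82 and 17.73. Tnni3 lay at 15.92, 15.67 and 15.44, Tnni1 at 12.0, 12.15 and 12.16, and Ttn at 15.28, 15.22 and 14.81. None of these 7 reached 1.5-fold in a secretome comparison.

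The Z-disc, junction and turnover genes that stood out in CF differed by less than 1.5-fold in CM. Myoz2 lay at 16.54 with PBS, 16.56 with Ccrl2+ and 16.47 with Ccrl2-, Smpx at 15.55, 15.72 and 15.67, and Des at 14.75, 14.85 and 14.61. Actn2 lay at 16.45, 16.40 and 16.27, and Trim63 at 12.93, 12.85 and 12.45. Whether the secretome differences of CF and CM differ from each other could not be tested with 1 array a group.

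Fibroblast and macrophage transcripts also differed between the CM arrays. The log2 of the summed fibroblast marker level was 15.99 with PBS, 16.19 with Ccrl2+ and 16.47 with Ccrl2-, and 4 of 9 markers were at least 2-fold higher with Ccrl2- over PBS, Col3a1 lying at 8.78, 9.77 and 10.93. Macrophage markers summed to 14.74, 13.76 and 14.20, with 5 of 9 at least 2-fold lower with Ccrl2+. Over all genes 0.746% were higher with Ccrl2- over PBS and 0.629% lower with Ccrl2+ over PBS. Cardiomyocyte genes outside the sarcomere summed to 20.18, 20.17 and 19.94, and 0 of 17 reached 2-fold in a CM comparison, a count without a test. Over all genes 0.839% reached it with Ccrl2+ over PBS, 1.53% with Ccrl2- over PBS and 0.310% between the secretomes. At shares this low a count of 0 says little. The part of the fibroblast and macrophage differences in the small differences of the members was not tested.

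Outside the member list, sarcomere genes in CM reached 2-fold in a single case. Trim54, a ubiquitin ligase gene of the MuRF family, lay at 10.55 with PBS, 10.20 with Ccrl2+ and 9.26 with Ccrl2-, lower than PBS by 1.29. It was the only 1 of 35 such genes past the floor with Ccrl2- over PBS, against 1.53% of all genes either way. With Ccrl2+ over PBS 0 of 35 reached 2-fold, against 0.839%, without a test. Such low shares make a count of 0 uninformative. Ankrd1 lay at 18.12, 18.05 and 18.10, and Myh7 at 12.84, 13.15 and 12.34.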

How the data were processed

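Total RNA of cultured mouse heart cells was labelled with biotin from 1 to 8 ug and hybridised to Affymetrix arrays, per the labels' protocols. The submitters' processing notes name Affymetrix Expression Console, with which the authors made the deposited log2 values, 1 per probe set. Software version, summary algorithm and genome build: not given in the sources used here. The log2 scale was read from the values. The sorted named values of the 6 arrays differed by 0.0945 on average and at most 0.43, so a change of most genes in a single direction would not be seen. Of 28846 probe sets, 19572 carry a symbol in the platform annotation and 5222 are negative controls. The probe set with the highest mean was used per symbol, giving 19505 genes.

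Log2 values of array pairs were subtracted in 7 comparisons, with the 2-fold and floor rules given above, and no p-value was computed. The members and lists were chosen with earlier results of these data known. Every member could be named, in other lists the largest differences and a few set genes. Casq2, Corin, Srf, Mef2a, Myod1, Myog and Actn3 were named outside that rule, after their values were seen. The alternatives were folds of 1.5 and 3, quantile normalization, no floor, the 75th percentile (10.14) as floor, a loess trend removed (span 0.4), centring on negative controls, the mean of probe sets and values raised to the floor. The counting was tested on simulated data with the spread between the CM secretome arrays and with changes set only in bright genes. It therefore does not cover dim genes on the CF arrays. Python 3.11.15, numpy 2.4.6, pandas 2.3.3, statsmodels 0.14.6 and matplotlib 3.10.9 were used.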

Additional observations from a re-analysis of the deposited data

How the results depend on the processing

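At 1.5-fold the members counted in CF were 13 higher and 4 lower with Ccrl2+ over PBS, against 11.4% and 15.0% of all genes, and 10 lower with Ccrl2- over PBS, against 14.8%. The 4 lower of 26 are near the share of all genes. In CM they were 2 lower with Ccrl2+ over PBS (all genes 3.26%), 6 lower with Ccrl2- over PBS (4.60%) and 5 higher with Ccrl2+ over Ccrl2- (2.32%). At 3-fold the CF counts were 2 higher with Ccrl2+ over PBS (2.14%), 1 lower with Ccrl2- over PBS (1.01%) and 6 higher between the secretomes (3.41%), and the CM counts were 1 lower with Ccrl2- over PBS (0.0796%) and 0 between the secretomes. With the floor at the 75th percentile they were 3 higher, 3 lower and 6 higher in CF and 1 lower and 0 in CM, in the same order. Centring on negative controls gave 11 higher with Ccrl2+ over PBS in CF, having raised the median of all genes there to 0.09, and 0 between the secretomes in CM. Quantile normalization gave 0 in that CM comparison as well, and without a floor 2 members were lower with Ccrl2+ over PBS in CF. Under the stricter floor, centring, quantile normalization and no floor, the share over all genes was not counted. Whether the members differ from all genes there is therefore not known. Of 126 counts under these alternatives 20 moved by more than 1.5 times. No median of the members and no named gene past 2-fold turned its direction in the alternatives run. For a single member only quantile normalization, the loess trend and centring could have turned it. The other settings leave a member's difference unchanged or shrink it. The mean of probe sets changes nothing for the members, as each has a single probe set. No paired analysis was possible because each group had 1 array. Of 37 members 4, 7 and 4 reached the 95th percentile of the negative controls in CF with PBS, Ccrl2+ and Ccrl2-, which limits the CF comparisons.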
